A study of Homo sapiens with 24 samples.

Results

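The difference between 2 ERG effects was examined in SW13, a human adrenal cortical carcinoma cell line. In one arm the cells carried BRG1, and in the other BRG1-K785R, in which the lysine of the ATP-binding site is exchanged and ATPase activity is lost. ERG or an empty vector was added in each arm. For every gene, the change with ERG beside BRG1-K785R was subtracted from the change with ERG beside BRG1. The contrast used 8 of the 24 RNA-seq libraries of the series, 2 in each of 4 groups: BRG1 Empty, BRG1 ERG, BRG1-K785R Empty and BRG1-K785R ERG. All 4 groups received a pair of lentiviruses for 48 h, one with blasticidin resistance (empty vector or V5-tagged ERG) and one with puromycin resistance (V5-tagged BRG1 or BRG1-K785R), and were harvested after 2 days of selection with both drugs. The groups are populations of infected cells that express the proteins from viral constructs. A further pair of groups, GFP Empty and GFP ERG (4 libraries), carried a control protein in place of BRG1. The titles name it GFP, while the protocol text attached to the BRG1 and BRG1-K785R samples names luciferase. The libraries of a group came from separate infections, selections and cultures. The comparison addresses whether the response to ERG depends on the ATPase activity of BRG1.

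BRG1, encoded by SMARCA4, is one of the alternative ATPases of BAF (mammalian SWI/SNF) complexes, which use ATP to slide and evict nucleosomes and so open enhancers and promoters. ERG is an ETS-family transcription factor that binds a GGAA core. It maintains endothelial identity in normal vessels and is overexpressed in many prostate cancers through fusion with TMPRSS2. SW13 is widely used for such experiments because the line lacks BRG1 and its homologue BRM.

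The constructs were seen in the counts. SMARCA4 stood at 26.9 to 35.2 CPM (read counts per library size, scaled by TMM) in the 4 GFP libraries. Its level was 2042 and 2067 CPM in BRG1 Empty and 1904 and 2213 CPM in BRG1 ERG. In the other arm it was 2395 and 2226 CPM in BRG1-K785R Empty and 1385 and 1350 CPM in BRG1-K785R ERG. The ERG effect on SMARCA4 was not called beside BRG1, its level was lower with ERG beside BRG1-K785R, and the difference of ERG effects on SMARCA4 was 0.76 ± 0.11 on the log2 scale (standard error, n = 2 per group, edgeR adjusted p = 1.02e-06). Reads from the construct and the chromosomal gene cannot be told apart. ERG had 0 reads in both BRG1-K785R Empty libraries and at most 0.214 CPM in BRG1 Empty. It reached 1807 and 2099 CPM in BRG1 ERG and 1573 and 1498 CPM in BRG1-K785R ERG. Because of the 0 reads, no difference of ERG effects is given for ERG itself.

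The 8 libraries held 19754265 to 26595972 counted reads. Both BRG1-K785R Empty libraries stood apart from the other 10 SW13 libraries. Reads on ribosomal RNA45S5 made up 1.98% and 2.64% of their counts, against 0.294% to 1.25% elsewhere. Against GFP Empty, 20 of 22 stress response genes were called higher and 0 lower in BRG1-K785R Empty, and 7 of 7 nuclear-retained RNAs were called lower (of all genes tested 58.7% were called, 32.3% higher and 26.4% lower). The summed level of the stress response list was 11490 and 10750 CPM there and 3928 to 5792 CPM in the other 10 libraries. For the nuclear-retained list it was 374.3 and 397.6 CPM, against 1557 to 3180 CPM. The contrast cannot be made without these libraries, so the ERG effect beside BRG1 minus that beside GFP, which does not use them, is given as a second value, marked GFP arm. Their part in the difference was not tested beyond that. Markers of adrenal cortex were mixed. CYP11B1, CYP11B2, HSD3B2 and MC2R had 0 reads in all 12 libraries and NR5A1 had 0 to 9, while CYP21A2 had 276 to 507, MRAP 46 to 152 and FDX1 802 to 1659. Among the leukocyte markers, CD3D and MS4A1 had 0 reads throughout and CD3E at most 2, while PTPRC had 15 to 62, NKG7 12 to 53 and CD68 219 to 817. LYZ, a macrophage and epithelial enzyme, had 87 and 89 reads in BRG1 ERG and at most 11 in the other 10 libraries.

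**Figure D1:**
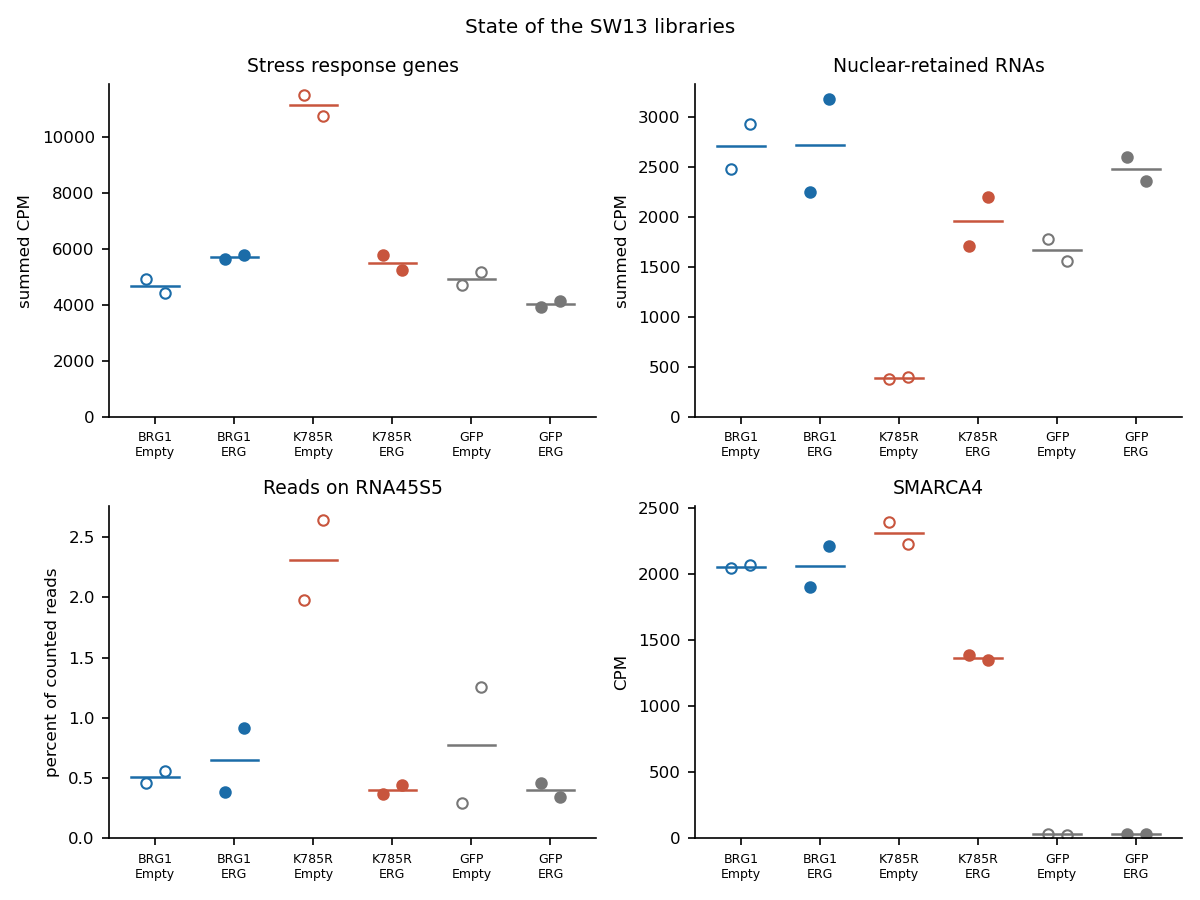
Summed CPM of the stress response and nuclear-retained lists, percent of counted reads on RNA45S5 and CPM of SMARCA4 in each of the 12 SW13 libraries. Points are libraries (open, empty vector; filled, ERG) and bars are means of 2; both BRG1-K785R Empty libraries, at 11490 and 10750 CPM, lie above the other 10 for stress genes and below them for nuclear-retained RNAs.

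The genes below carry 3 of the patterns of the report: a rise with ERG mainly beside BRG1 (EXOC3L2, KDR, GDF15), a fall with ERG mainly beside BRG1 (COL17A1, SCEL), and a rise in both arms (IFITM1, IFITM3). Genes whose called change was beside BRG1-K785R alone, a pattern counted below, are not shown. The promoters of the 7 genes are shown so that the ERG core motif can be seen. Each is the 250 bases before the start of transcription, 5′ to 3′ on the strand of the gene, from RefSeq on GRCh38.p14, with GGAA or its reverse complement TTCC in capitals. EXOC3L2 lies at chr19:45245408-45245657 (minus strand), KDR at chr4:55125596-55125845 (minus strand) and GDF15 at chr19:18385908-18386157 (plus strand). COL17A1 lies at chr10:104085881-104086130 (minus strand) and SCEL at chr13:77535456-77535705 (plus strand). IFITM1 lies at chr11:313790-314039 (plus strand) and IFITM3 at chr11:320861-321110 (minus strand).
EXOC3L2: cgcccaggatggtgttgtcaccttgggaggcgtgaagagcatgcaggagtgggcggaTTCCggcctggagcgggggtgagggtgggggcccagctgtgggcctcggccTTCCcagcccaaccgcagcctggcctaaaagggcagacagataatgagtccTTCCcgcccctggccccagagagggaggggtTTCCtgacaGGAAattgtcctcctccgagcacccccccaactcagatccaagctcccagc
KDR: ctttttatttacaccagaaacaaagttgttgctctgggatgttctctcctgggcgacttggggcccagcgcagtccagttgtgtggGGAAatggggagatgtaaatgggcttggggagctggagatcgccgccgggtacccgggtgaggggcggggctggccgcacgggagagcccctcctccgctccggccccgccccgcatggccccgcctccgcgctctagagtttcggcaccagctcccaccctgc
GDF15: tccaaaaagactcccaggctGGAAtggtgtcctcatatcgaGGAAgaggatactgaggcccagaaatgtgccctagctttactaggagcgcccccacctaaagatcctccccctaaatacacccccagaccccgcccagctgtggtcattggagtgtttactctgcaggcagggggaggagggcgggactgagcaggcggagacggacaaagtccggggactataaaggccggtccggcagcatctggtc
COL17A1: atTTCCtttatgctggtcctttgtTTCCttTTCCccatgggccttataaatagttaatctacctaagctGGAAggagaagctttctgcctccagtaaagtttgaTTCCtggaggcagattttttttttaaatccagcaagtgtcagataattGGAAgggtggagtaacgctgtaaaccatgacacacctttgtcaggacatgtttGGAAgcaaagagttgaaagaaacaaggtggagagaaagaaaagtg
SCEL: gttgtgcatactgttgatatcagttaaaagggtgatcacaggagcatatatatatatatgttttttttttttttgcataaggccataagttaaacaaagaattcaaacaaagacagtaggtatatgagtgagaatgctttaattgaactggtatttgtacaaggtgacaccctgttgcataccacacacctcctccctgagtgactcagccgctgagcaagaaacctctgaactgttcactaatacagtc
IFITM1: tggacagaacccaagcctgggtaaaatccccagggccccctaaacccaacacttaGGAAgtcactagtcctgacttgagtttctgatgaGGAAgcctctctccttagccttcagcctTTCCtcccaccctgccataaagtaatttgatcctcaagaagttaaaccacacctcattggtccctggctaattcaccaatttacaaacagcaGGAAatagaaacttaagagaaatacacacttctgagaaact
IFITM3: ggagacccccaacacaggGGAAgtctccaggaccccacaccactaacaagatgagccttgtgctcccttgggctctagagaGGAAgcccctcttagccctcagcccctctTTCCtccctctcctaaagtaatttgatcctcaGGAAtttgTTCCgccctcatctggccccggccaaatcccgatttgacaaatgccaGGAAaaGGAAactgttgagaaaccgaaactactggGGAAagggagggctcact
GGAA on either strand occurred 5 times in EXOC3L2, once in KDR, 2 times in GDF15, 7 times in COL17A1, 0 times in SCEL, 4 times in IFITM1 and 8 times in IFITM3. It was present in 92.7% of the 35116 promoters of this length in the table. The longer AGGAAG, which contains GGAA, occurred 2 times in IFITM1 and once each in GDF15 and IFITM3, and in 28.7% of all promoters. The ETS consensus CCGGAAGT and the repeat GGAAGGAA occurred in none of the 7, and in 3.42% and 3.06% of all promoters. TGANTCA, the AP-1 motif, occurred once in SCEL and in 6.57% of all promoters. Of the 17018 genes tested, 11755 (69.1%) had a promoter in the table, under the 80% set as the minimum, so shares were not compared between groups of genes.

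Of 17018 genes tested, 7863 (46.2%) differed in their ERG effect between the arms at an adjusted p under 0.05. The effect was higher beside BRG1 for 4390 genes (25.8%) and lower for 3473 (20.4%), and it differed at least 2-fold for 552 and 1453. With library totals in place of TMM as the scale, 2265 were higher and 5316 lower. The share of calls that were higher then moved from 55.8% to 29.9%, and the median over all genes from 0.05 to -0.18, so the balance of directions depends on the scale. ERG itself changed 7724 genes beside BRG1 (45.4%; 3852 higher, 3872 lower) and 9563 beside BRG1-K785R (56.2%; 4309 higher, 5254 lower, or 6267 and 3441 with library totals). The arms share no library. They had 1417 genes in common among those higher with ERG, 36.8% of the genes higher beside BRG1 and 32.9% of those higher beside BRG1-K785R. Among those lower they had 1920 in common, 49.6% and 36.5%. Opposite calls were made for 733 genes higher beside BRG1 and lower beside BRG1-K785R, and for 674 the other way.

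The genes with a called difference divided by arm. Among the 4390 with a higher effect beside BRG1, 898 rose with ERG beside BRG1 and were not called beside BRG1-K785R, 733 rose beside BRG1 and fell beside BRG1-K785R, and 1924 fell beside BRG1-K785R and were not called beside BRG1. Among the 3473 with a lower effect, 719 fell beside BRG1 alone by the same definition, 674 fell beside BRG1 and rose beside BRG1-K785R, and 1563 rose beside BRG1-K785R alone. The larger change was in the BRG1-K785R arm for 68.1% of the former and 68.8% of the latter. On the TMM scale, most called differences thus came with a larger change between the BRG1-K785R Empty and BRG1-K785R ERG libraries than between the BRG1 libraries.

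**Figure D2:**
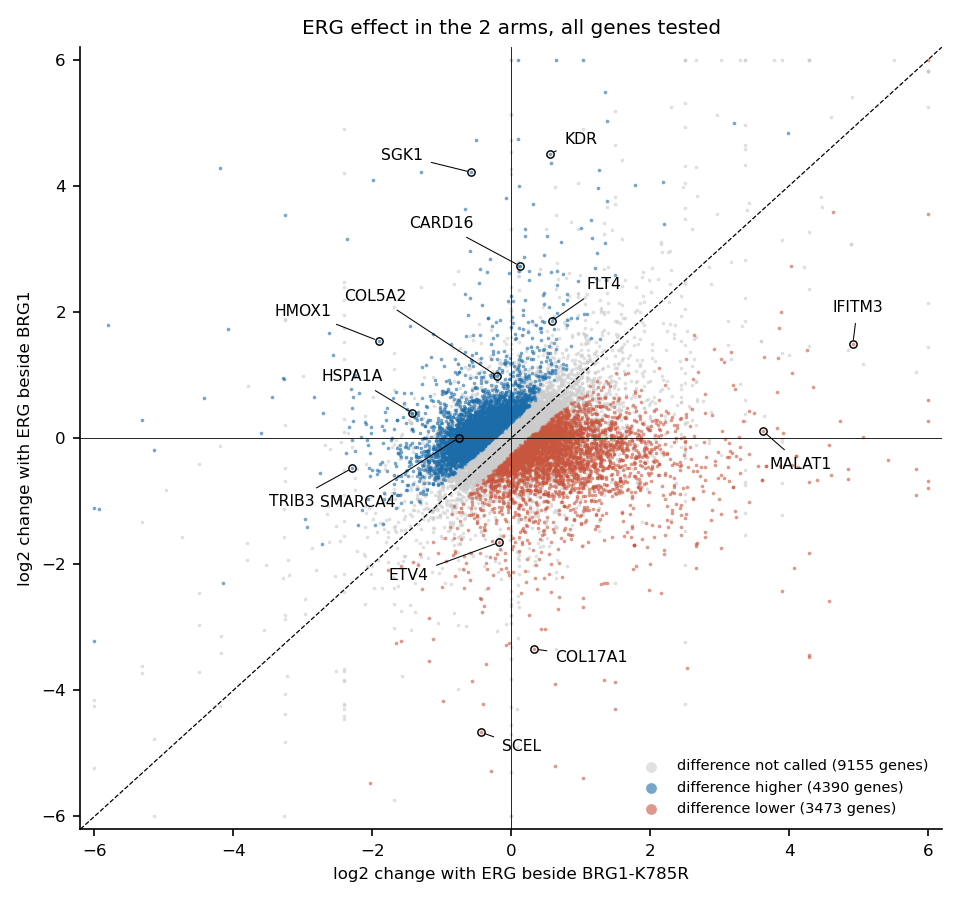
Log2 change with ERG beside BRG1 (vertical) against that beside BRG1-K785R (horizontal) for the 17018 genes tested, with values beyond 6 drawn at 6. Blue marks the 4390 genes whose difference was called higher, red the 3473 called lower and grey the 9155 not called; KDR and SGK1 lie high on the vertical axis near 0 on the horizontal one, while MALAT1 lies near 0 on the vertical axis.

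Endothelial genes, the normal targets of ERG in vessels, rose with ERG beside BRG1. Of 30 tested members, 12 had a higher ERG effect beside BRG1 and 1 a lower one (all genes, 25.8% and 20.4%). The median difference was 0.99 (all genes, 0.05). The GFP arm gave the same counts, 12 higher and 1 lower, with a median of 0.59 (all genes, 19.1% higher and 18.7% lower). Beside BRG1, 20 members rose with ERG and 2 fell (all genes, 22.6% and 22.8%). Beside BRG1-K785R, 9 rose and 5 fell (all genes, 25.3% and 30.9%). KDR, the main receptor for VEGF-A, was at 0.715 and 1.36 CPM in BRG1 Empty and 20.0 and 27.1 CPM in BRG1 ERG. Its levels were 1.53 and 2.27 CPM in BRG1-K785R Empty and 2.82 and 2.72 CPM in BRG1-K785R ERG. Only the 2 BRG1 ERG libraries were high, and the difference was 3.95 ± 0.38 (adjusted p = 6.79e-10), against 3.99 ± 0.36 with the GFP arm. FLT4, the receptor for VEGF-C on lymphatic endothelium, was at 27 and 27.8 CPM in BRG1 Empty and 91.4 and 107 CPM in BRG1 ERG. It also rose beside BRG1-K785R, from 35.6 and 29.9 to 49.0 and 49.6 CPM. FLT4 thus rose in both arms and further beside BRG1, with a difference of 1.27 ± 0.13 (adjusted p = 1.24e-09; GFP arm 1.34 ± 0.13). HEY1, a transcriptional repressor induced by Notch, went from 201 and 197 to 374 and 370 CPM beside BRG1 and from 561 and 565 to 498 and 477 CPM beside BRG1-K785R, so the arms moved in opposite directions (difference 1.11 ± 0.10; GFP arm 1.08 ± 0.10). GATA2, a transcription factor of endothelial and blood cells, differed by 1.04 ± 0.11 (GFP arm 0.52 ± 0.12), but its ERG effect was 0.14 ± 0.08 beside BRG1 and -0.90 ± 0.08 beside BRG1-K785R, so the change was in the BRG1-K785R arm.

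CD93, CD300LG and EXOC3L2 had at most 7 reads in each SW13 library outside BRG1 ERG. CD93, a transmembrane lectin of endothelium, had 0 and 1 reads in BRG1 Empty and 327 and 417 in BRG1 ERG. In the other arm CD93 had 0 and 1 reads in each group. The ratio beside BRG1 was 784 (95% counting interval 140 to 31000), and no ratio can be formed beside BRG1-K785R. For CD300LG, a receptor found on capillary endothelium, there were 1 and 0 reads in BRG1 Empty and 143 and 180 in BRG1 ERG, a ratio of 340 (60.6 to 13480), and 1 to 3 reads in the BRG1-K785R libraries. The paralogs EXOC3L1 and EXOC3L2, which resemble the SEC6 subunit of the exocyst, both rose beside BRG1. EXOC3L1 rose from 0.929 and 0.717 to 31.4 and 43.5 CPM beside BRG1, and from 0.826 and 0.543 to 2.03 and 1.53 CPM beside BRG1-K785R (difference 4.15 ± 0.48, adjusted p = 2.53e-08; GFP arm 4.08 ± 0.50). EXOC3L2 went from 0.0715 and 0.0755 to 13.6 and 15.5 CPM beside BRG1 and did not exceed 3 reads in any BRG1-K785R library (GFP arm 6.73 ± 1.06). These rises were among the 12 largest positive differences, with APOL3, GABRP and KIAA1210, which had 0 to 3 reads in every BRG1-K785R library. The calls for CD93, GABRP, APOL3 and KIAA1210 were each lost without 1 of the BRG1-K785R Empty libraries. With the GFP arm the differences of CD93, CD300LG, GABRP and KIAA1210 were not called (adjusted p = 0.9998, 0.952, 0.091 and 0.763), where each had 0 to 2 reads in every GFP library, and that of APOL3 was (0.0373).

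Of 6 inflammatory caspases and inhibitors, a list added after the values were seen, 3 had a higher ERG effect beside BRG1 and 3 were not called, with the same counts for the GFP arm. Over all genes 25.8% were higher, and 19.1% with the GFP arm. CASP1 encodes the caspase that cleaves interleukin-1 beta and CARD16 a short protein that resembles its CARD domain and inhibits it. The 2 genes are near-identical neighbours, so their reads may be split between them. CARD16 was at 15.7 and 17.3 CPM in BRG1 Empty and 107 and 112 CPM in BRG1 ERG. It stayed between 40.6 and 45.9 CPM over the BRG1-K785R libraries. CASP1 was at 9.94 and 9.51 CPM in BRG1 Empty and 57.9 and 64.8 CPM in BRG1 ERG, and between 19.4 and 25.6 CPM over the BRG1-K785R libraries. BRG1 ERG was the highest group for both, and BRG1 Empty the lowest. The differences were 2.60 ± 0.12 (adjusted p = 1.12e-16) and 2.40 ± 0.14 (3.49e-14). They were 2.99 ± 0.12 and 2.57 ± 0.15 with the GFP arm. Of 40 interferon-stimulated genes, 36 rose with ERG beside BRG1 and 2 fell (all genes, 22.6% and 22.8%), while 18 rose and 2 fell beside BRG1-K785R (all genes, 25.3% and 30.9%). Their difference was called higher for 9 and lower for 7, shares no higher than over all genes (25.8% and 20.4%). The median of the interferon list was 0.33. With library totals the median was 0.09, and 5 were higher and 9 lower (all genes, 2265 and 5316 of 17018). Against GFP 12 were higher and 3 lower (all genes, 19.1% and 18.7%). IRF1, a transcription factor that induces many of them, rose from 23.2 and 22.9 to 42.7 and 39.2 CPM beside BRG1 and lay between 16.9 and 19.9 CPM beside BRG1-K785R (difference 0.95 ± 0.14, adjusted p = 1.38e-06; GFP arm 0.79 ± 0.14). CCL5, a chemokine that attracts T cells, was at 22.8 and 24.5 CPM in BRG1 Empty and 194 and 153 CPM in BRG1 ERG, against 1.32 to 2.13 CPM in the BRG1-K785R libraries (difference 2.69 ± 0.30). Its difference was not called with the GFP arm (1.97 ± 0.89), where CCL5 was at most 0.251 CPM.

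Of 15 tested antigen presentation genes, 10 rose and 0 fell beside BRG1 (all genes, 22.6% and 22.8%), and 4 rose and 3 fell beside BRG1-K785R (all genes, 25.3% and 30.9%). The difference was higher for 7 and lower for 1 (all genes, 25.8% and 20.4%), with a median of 0.56. With the GFP arm it was higher for 9 and lower for 1 (all genes, 19.1% and 18.7%). B2M, the light chain of class I molecules, was at 345 and 325 CPM in BRG1 Empty, 552 and 557 CPM in BRG1 ERG and 162 to 182 CPM beside BRG1-K785R, a difference of 0.80 ± 0.10 (adjusted p = 1.16e-07; GFP arm 1.25 ± 0.10). HLA-C, a class I heavy chain, rose beside BRG1 from 12.5 and 14.5 to 27.8 and 22.8 CPM and fell beside BRG1-K785R from 14.4 and 14.5 to 7.42 and 7.64 CPM (1.85 ± 0.17; GFP arm 0.75 ± 0.18). HLA-E, another heavy chain, differed by 0.86 ± 0.11 (GFP arm 0.44 ± 0.11). Reads of these genes can be shared, since their sequences are alike. HLA-DMB, which helps load peptides on class II molecules and is listed here among genes high in ERG-positive prostate tumours, rose from 1.25 and 1.09 to 6.18 and 5.16 CPM beside BRG1. Beside BRG1-K785R HLA-DMB lay between 0.642 and 1.19 CPM (difference 1.81 ± 0.43; GFP arm 1.79 ± 0.46). Only 2 of the 13 tested genes of the tumour list differed in this direction and 2 in the other (all genes, 25.8% and 20.4%). With the GFP arm the counts were 2 and 1 (all genes, 19.1% and 18.7%).

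The IFITM genes, whose products block entry of viruses at membranes, rose in both arms and by more on the log scale beside BRG1-K785R. IFITM3 was at 33.6 and 38.8 CPM in BRG1 Empty and 97.8 and 107 CPM in BRG1 ERG. In the other arm it was at 0.909 and 0.889 CPM without ERG and 28.6 and 26.1 CPM with it. With BRG1 the starting level was higher than the end level beside BRG1-K785R. The difference for IFITM3 was -3.42 ± 0.21 (adjusted p = 6.71e-14). IFITM1 went from 18.6 and 23.7 to 37.2 and 37.2 CPM beside BRG1 and from 0.0413 and 0.198 to 2.47 and 2.29 CPM beside BRG1-K785R, a difference of -3.52 ± 0.52. For IFITM2 the difference was -1.89 ± 0.29. With the GFP arm the values were -0.95 ± 0.27 for IFITM3, and -0.96 ± 0.79 for IFITM1 and 0.11 ± 0.52 for IFITM2, which were not called. The 3 genes are alike in sequence, and reads may be divided among them.

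**Figure D3:**
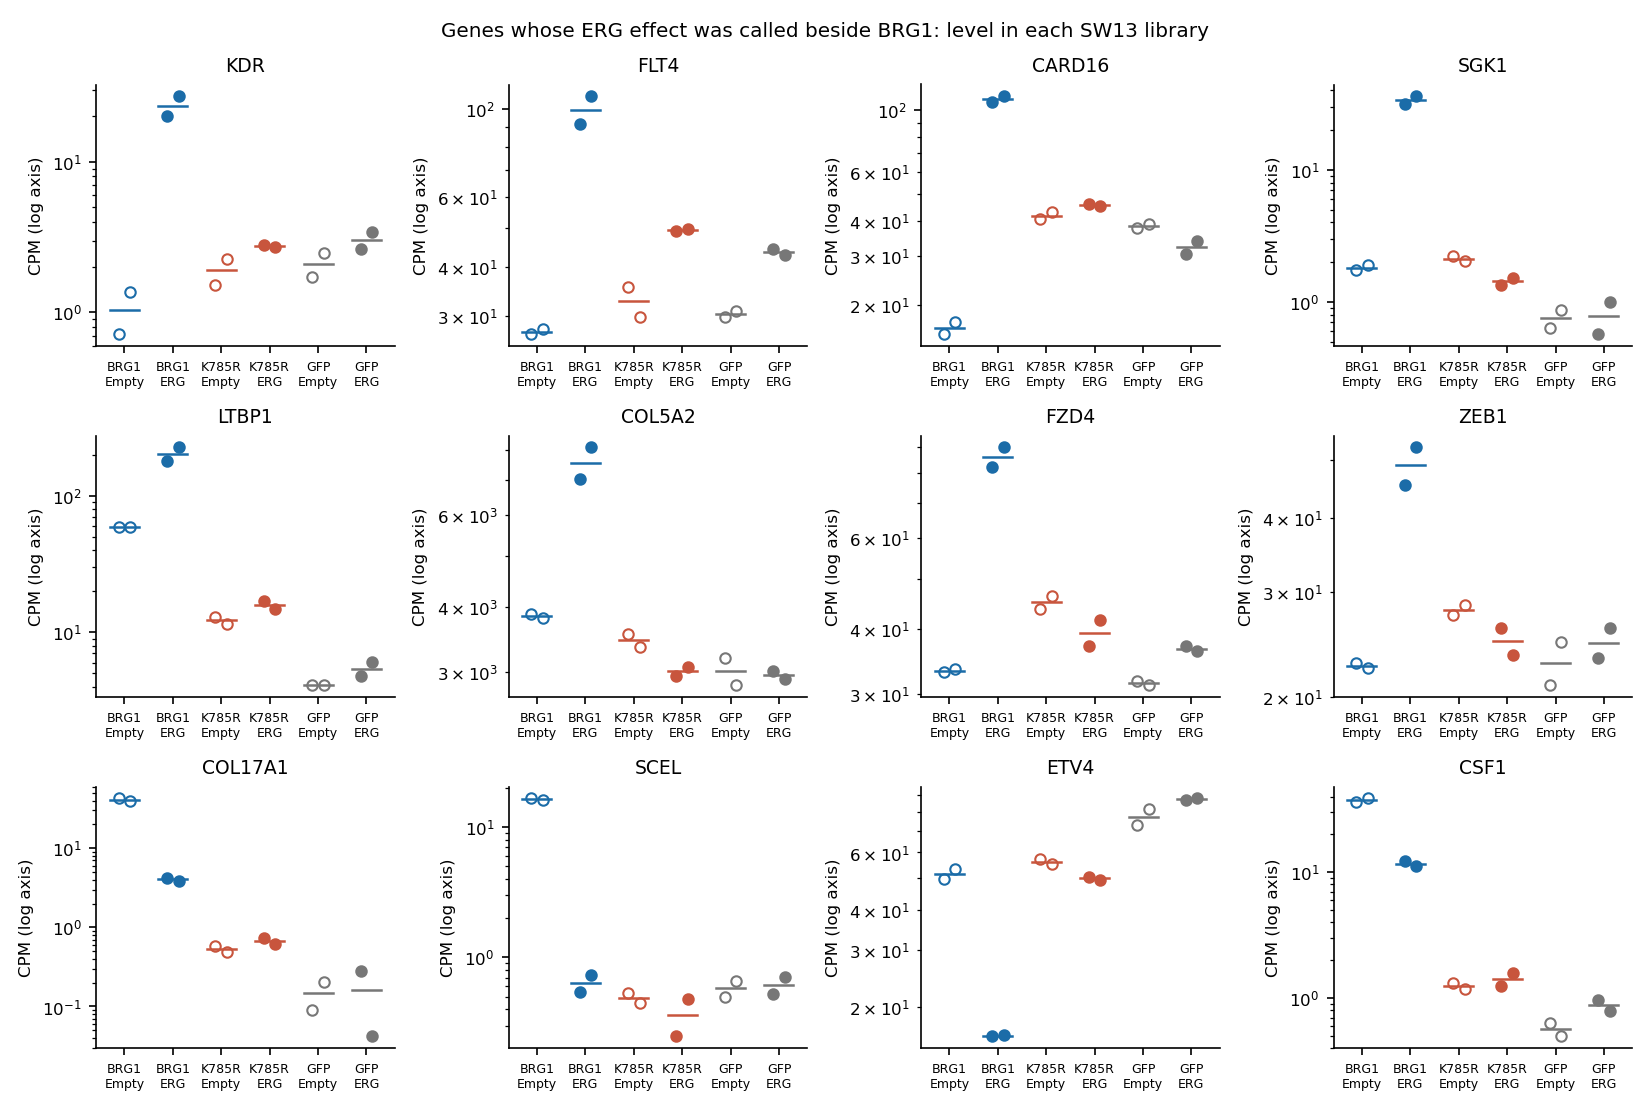
CPM (log axis) of 12 genes in each SW13 library; points are libraries (open, empty vector; filled, ERG) and bars are means of 2. BRG1 ERG is the highest group for the first 8 genes, for example 20.0 and 27.1 CPM for KDR, and ETV4 at 16.3 and 16.5 CPM is lowest there.

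SGK1 and BTG2 rose beside BRG1 and were nearly level beside BRG1-K785R, while KLF2 and CDKN1A rose in the former arm and fell in the latter. SGK1 encodes a kinase induced by glucocorticoid and serum. It was at 1.75 and 1.89 CPM in BRG1 Empty and 31.5 and 36.1 CPM in BRG1 ERG, and between 1.34 and 2.23 CPM over the BRG1-K785R libraries. Its difference was 4.79 ± 0.31 (adjusted p = 1.78e-13) and 4.16 ± 0.42 with the GFP arm. Among immediate early genes as a list, 10 of 20 tested had a higher difference and 2 a lower one (all genes, 25.8% and 20.4%). With the GFP arm, however, 8 were higher and 6 lower (all genes, 19.1% and 18.7%). Of the 20, 6 rose and 7 fell with ERG beside BRG1 (all genes, 22.6% and 22.8%). Beside BRG1-K785R 3 rose and 11 fell (all genes, 25.3% and 30.9%). KLF2, a shear-responsive transcription factor of endothelium, rose from 11.9 and 12.5 to 23.2 and 27.3 CPM beside BRG1 and fell from 20.6 and 21.2 to 15.2 and 16.5 CPM beside BRG1-K785R (1.44 ± 0.15; GFP arm 1.12 ± 0.15). BTG2, an antiproliferative p53 target, rose from 16.3 and 16.6 to 53 and 57 CPM beside BRG1, while all 4 BRG1-K785R libraries lay between 12.6 and 14.7 CPM (1.63 ± 0.14, adjusted p = 1.26e-10; GFP arm 1.48 ± 0.14). CDKN1A, which encodes the CDK inhibitor p21, rose beside BRG1 from 12.5 and 10.9 to 20.5 and 23.8 CPM and fell beside BRG1-K785R from 18.9 and 17.6 to 9.75 and 9.93 CPM (1.81 ± 0.20; GFP arm 1.58 ± 0.23). Over the p53 list, 7 of 20 were higher and 3 lower (all genes, 25.8% and 20.4%). With the GFP arm 6 were higher and 4 lower (all genes, 19.1% and 18.7%).

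Within the TGF-beta, activin and BMP list, 16 of 32 tested genes had a higher ERG effect beside BRG1 and 6 a lower one (median 0.54). The shares over all genes were 25.8% and 20.4%. With the GFP arm 11 were higher and 5 lower (all genes, 19.1% and 18.7%), with a median of 0.17. GDF15, a secreted stress-induced ligand of the family, was at 0.786 and 0.944 CPM in BRG1 Empty and 9.52 and 11.9 CPM in BRG1 ERG, and at 0.716 to 1.49 CPM beside BRG1-K785R (4.29 ± 0.47, adjusted p = 1.19e-08; GFP arm 3.14 ± 0.62). BMP6, a BMP ligand, rose from 22.9 and 22.4 to 44.6 and 46.4 CPM beside BRG1 and fell from 40.3 and 39.1 to 27.1 and 22.8 CPM beside BRG1-K785R (1.68 ± 0.13; GFP arm 1.07 ± 0.13). LTBP1, which tethers latent TGF-beta to the matrix, was at 59.7 and 59.3 CPM in BRG1 Empty and 182 and 228 CPM in BRG1 ERG, and at 11.6 to 17.0 CPM beside BRG1-K785R (1.43 ± 0.15; GFP arm 1.38 ± 0.19). Every BRG1 library was above every BRG1-K785R library for LTBP1. SMAD9, a receptor-regulated SMAD of the BMP branch, rose from 25.6 and 24.4 to 57.7 and 60.4 CPM beside BRG1 and lay between 21.7 and 24.9 CPM in the other arm (1.09 ± 0.12; GFP arm 1.14 ± 0.12). Of 34 WNT genes 6 were higher and 7 lower, near or below the shares over all genes (25.8% and 20.4%). With the GFP arm 4 were higher and 6 lower (all genes, 19.1% and 18.7%). FZD4, a WNT receptor that also binds norrin, rose from 33.1 and 33.5 to 82.2 and 89.8 CPM beside BRG1, against 37.1 to 46.3 CPM beside BRG1-K785R (1.56 ± 0.11, adjusted p = 2.87e-12; GFP arm 1.15 ± 0.12). DKK1, a secreted WNT inhibitor, rose from 147 and 145 to 288 and 295 CPM beside BRG1, and its 4 BRG1-K785R libraries lay between 173 and 191 CPM (0.92 ± 0.10; GFP arm 1.21 ± 0.10).

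Of 16 mesenchymal genes, 6 were higher and 2 lower (all genes, 25.8% and 20.4%). With the GFP arm 4 were higher and 2 lower (all genes, 19.1% and 18.7%), with a median of -0.31. As a list they did not rise with ERG. Beside BRG1 4 rose and 5 fell (all genes, 22.6% and 22.8%), with a median of -0.42. Beside BRG1-K785R 2 rose and 4 fell (all genes, 25.3% and 30.9%), with a median of -0.36. ZEB1, a repressor of epithelial genes, rose from 22.7 and 22.4 to 45.4 and 52.5 CPM beside BRG1 and was at 23.5 to 28.5 CPM beside BRG1-K785R (1.29 ± 0.14, adjusted p = 6.99e-09; GFP arm 1.01 ± 0.14). SNAI1, another such repressor, differed by 2.27 ± 0.29 (GFP arm 1.35 ± 0.30), with levels of 1.70 to 7.15 CPM. In contrast TAGLN, an actin-binding protein of smooth muscle, fell beside BRG1 from 310 and 318 to 220 and 178 CPM and rose beside BRG1-K785R from 13 and 11 to 15.5 and 18.8 CPM (-1.17 ± 0.15; GFP arm -0.67 ± 0.14). COL5A2, a chain of the fibril-regulating collagen V, was the 1 of 23 tested collagen genes called with a higher difference. It was at 3867 and 3810 CPM in BRG1 Empty and 7039 and 8090 CPM in BRG1 ERG, against 3550 and 3353 and then 2952 and 3065 CPM beside BRG1-K785R (1.18 ± 0.11, adjusted p = 2.16e-10; GFP arm 1.00 ± 0.11). Of 25 tested matrix proteases and inhibitors, 8 were higher and 3 lower (all genes, 25.8% and 20.4%). With the GFP arm only 1, SERPINE2, was higher and 4 were lower (all genes, 19.1% and 18.7%). SERPINE2, an inhibitor of thrombin and urokinase, rose from 27.9 and 26.5 to 62.1 and 67.8 CPM beside BRG1. It fell from 16.2 and 17.9 to 10.5 and 8.88 CPM beside BRG1-K785R (2.07 ± 0.15, and 1.80 ± 0.18 with the GFP arm). ITGA5, the alpha chain of the fibronectin receptor, rose from 73.1 and 73.1 to 120 and 126 CPM and fell from 74.2 and 65.5 to 54.2 and 51.5 CPM (1.15 ± 0.11; GFP arm 0.60 ± 0.11). EPHB2, a receptor for ephrin-B ligands, rose beside BRG1 from 72.2 and 73.3 to 130 and 150 CPM and lay between 33.5 and 36.7 CPM in the other arm (1.03 ± 0.11; GFP arm 1.06 ± 0.12).

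Of 33 HOX genes, which set position along the body axis, 8 were higher and 8 lower, near the shares over all genes (25.8% and 20.4%). With the GFP arm 5 were higher and 9 lower (all genes, 19.1% and 18.7%). HOXD1 rose from 17.1 and 18.6 to 62.6 and 65.3 CPM beside BRG1 and from 29.1 and 27.9 to 39.6 and 39.7 CPM beside BRG1-K785R (1.36 ± 0.12, adjusted p = 1.04e-10; GFP arm 1.87 ± 0.12). HOXC9 rose beside BRG1 from 18.4 and 17.3 to 39.3 and 36.6 CPM, and was at 24 to 28.1 CPM beside BRG1-K785R (0.89 ± 0.13; GFP arm 0.84 ± 0.13). HOXB2 and HOXB3, by contrast, had differences of -1.58 ± 0.23 and -1.3 ± 0.18 (GFP arm -0.61 ± 0.22 and -0.96 ± 0.18), and their called change was the rise beside BRG1-K785R (1.29 ± 0.18 and 1.16 ± 0.14).

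Genes of epithelial attachment fell with ERG beside BRG1. Of 13 tested genes of hemidesmosomes, laminin-332 and basal cells, 11 fell and 1 rose with ERG beside BRG1 (all genes, 22.8% and 22.6%). Beside BRG1-K785R 4 fell and 4 rose (all genes, 30.9% and 25.3%). The difference was lower for 6 and higher for 0 (all genes, 20.4% and 25.8%), with a median of -0.43. With the GFP arm it was lower for 7 and higher for 1 (all genes, 18.7% and 19.1%), with a median of -1.31. COL17A1, the transmembrane collagen of hemidesmosomes, was at 42.6 and 39.3 CPM in BRG1 Empty and 4.24 and 3.81 CPM in BRG1 ERG. Beside BRG1-K785R it was near the bottom of detection throughout, at 0.494 to 0.742 CPM. Its ERG effect was -3.35 ± 0.14 beside BRG1 and 0.33 ± 0.41 beside BRG1-K785R, and the difference was -3.68 ± 0.46 (adjusted p = 1.16e-07; GFP arm -3.46 ± 0.82). LAMB3, the beta chain of laminin-332, fell from 20.3 and 23.7 to 4.00 and 3.97 CPM beside BRG1 and had 1 to 5 reads in each BRG1-K785R library. Its difference was not called with the GFP arm (adjusted p = 0.9998), where LAMB3 had 0 reads in all 4 libraries. LAMA3, its alpha chain, was at 3.75 to 5.39 CPM over the BRG1 libraries and rose beside BRG1-K785R from 0.578 and 1.04 to 3.31 and 3.68 CPM (-2 ± 0.38; GFP arm -1.92 ± 0.49). DST, which links hemidesmosomes to keratin filaments, fell from 947 and 860 to 455 and 635 CPM beside BRG1 and lay between 648 and 704 CPM in the other arm (-0.76 ± 0.13; GFP arm -1.31 ± 0.13). SCEL, a precursor of the cornified envelope of squamous epithelia, was at 16.6 and 16 CPM in BRG1 Empty and 0.544 and 0.732 CPM in BRG1 ERG, a level similar to the 0.247 to 0.537 CPM of the BRG1-K785R libraries (-4.23 ± 0.61, adjusted p = 1.3e-06; GFP arm -4.75 ± 0.49).

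For these genes the 2 arms did not start from the same level. CDH1, encoding E-cadherin, was at 5.43 and 6.27 CPM in BRG1 Empty, 1.75 and 2.27 CPM in BRG1 ERG and 0.642 to 1.24 CPM beside BRG1-K785R (-2.38 ± 0.41; GFP arm -2.55 ± 0.70). MUC1, an apical mucin, fell from 23.9 and 27.7 to 9.99 and 11.3 CPM beside BRG1 and rose from 8.22 and 7.80 to 12.3 and 17.8 CPM beside BRG1-K785R (-2.19 ± 0.21; GFP arm -2.04 ± 0.19). Among epithelial junction and luminal genes, 9 of 24 were lower and 2 higher (all genes, 20.4% and 25.8%). With the GFP arm 7 were lower and 2 higher (all genes, 18.7% and 19.1%). IGFN1, a muscle protein with immunoglobulin and fibronectin domains, fell beside BRG1 from 28.1 and 38.2 to 2.14 and 3.16 CPM and had 1 to 10 reads per library beside BRG1-K785R. COLCA1, KCNMA1, KRT4, NHS and UBD completed the 12 largest negative differences, with at most 10.6 CPM in any library. The calls for these 5 were each lost when 1 library was left out, and that for KRT4 turned positive without the second BRG1-K785R ERG library (0.49). Against GFP, UBD and KRT4 were not called (adjusted p = 0.9998 and 0.817), and COLCA1, KCNMA1, NHS and IGFN1 were called lower.

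Some secreted signals and ETS factors were among the genes that fell. Of 16 tested cytokine and chemokine entries, with CXCL8 under both its symbols, 3 had a higher difference and 4 a lower one (all genes, 25.8% and 20.4%). With the GFP arm 1 was higher and 3 lower (all genes, 19.1% and 18.7%). Beside BRG1 5 rose and 9 fell with ERG (all genes, 22.6% and 22.8%). CCL5 of this list, given above, rose. CSF1, the growth factor of macrophages, was at 36.4 and 38.6 CPM in BRG1 Empty and 12.2 and 11.2 CPM in BRG1 ERG, against 1.19 to 1.58 CPM beside BRG1-K785R (-1.84 ± 0.29, adjusted p = 5.16e-06; GFP arm -2.33 ± 0.35). LIF, a cytokine of the interleukin-6 family, fell beside BRG1 from 4.72 and 5.81 to 1.63 and 1.81 CPM (-1.83 ± 0.44; not called without the second BRG1-K785R ERG library; GFP arm -1.95 ± 0.50). Of 22 tested ETS factors, ERG included, 7 were higher and 8 lower (all genes, 25.8% and 20.4%). ERG itself is among the 8, although its difference is not given because of its 0 reads in BRG1-K785R Empty. With the GFP arm 2 were higher and 9 lower (all genes, 19.1% and 18.7%). ETV4, a PEA3-type ETS factor that is an oncogene in prostate cancer, was at 49.7 and 53.3 CPM in BRG1 Empty and 16.3 and 16.5 CPM in BRG1 ERG. ETV4 lay between 49.4 and 57.2 CPM over the BRG1-K785R libraries, so its difference was -1.48 ± 0.12 (adjusted p = 1.18e-11), and it was -1.84 ± 0.11 with the GFP arm. ETV1, its relative, had a smaller difference of -0.73 ± 0.11 (GFP arm -0.61 ± 0.10). ELF1 and ELF2 differed the other way, by 0.83 ± 0.12 and 0.77 ± 0.12 (GFP arm 0.50 ± 0.12, and 0.29 ± 0.12 and not called). IL17RD, a feedback inhibitor of FGF signalling, fell from 19.8 and 20.4 to 7.34 and 7.66 CPM beside BRG1 and was at 16.6 to 20.3 CPM in the other arm (-1.38 ± 0.16; GFP arm -1.40 ± 0.17). VGF, the precursor of neuropeptides, fell in both arms and further beside BRG1, from 22.7 and 20.4 to 2.80 and 3.12 CPM (-1.67 ± 0.25; GFP arm -1.98 ± 0.23).

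Among semaphorins, plexins and neuropilins, which guide axons and vessels, 10 of 27 were lower and 4 higher (all genes, 20.4% and 25.8%). With the GFP arm 15 were lower and 2 higher (all genes, 18.7% and 19.1%). SEMA3B, a secreted semaphorin, fell from 45.1 and 52.3 to 21.6 and 24 CPM beside BRG1 and rose from 7.27 and 6.62 to 13.4 and 16.2 CPM beside BRG1-K785R (-2.19 ± 0.19, adjusted p = 6.25e-11; GFP arm -1.32 ± 0.17). PLXNB1 and PLXNA3, semaphorin receptors, differed by -1.19 ± 0.13 and -1.04 ± 0.15 (GFP arm -0.88 ± 0.13 and -0.75 ± 0.14). Integrins and matrix receptors were lower for 10 of 23 and higher for 4 (all genes, 20.4% and 25.8%). With the GFP arm 6 were lower and 5 higher (all genes, 18.7% and 19.1%). ITGAV, the alpha chain of vitronectin receptors, lay between 552 and 619 CPM over the BRG1 libraries. It rose beside BRG1-K785R from 303 and 320 to 610 and 565 CPM (-0.94 ± 0.10; -0.17 ± 0.10 and not called with the GFP arm). Collagen genes were lower for 9 of 23 and higher for 1 (all genes, 20.4% and 25.8%), with a median of -0.76. With the GFP arm 6 were lower and 2 higher (all genes, 18.7% and 19.1%). As a list they did not fall beside BRG1, where 7 rose and 7 fell with ERG (all genes, 22.6% and 22.8%), with a median of 0.005. Beside BRG1-K785R 13 rose and 3 fell (all genes, 25.3% and 30.9%), with a median of 0.54. COL1A1, the major chain of collagen I, fell beside BRG1 from 55.0 and 55.7 to 9.87 and 11.6 CPM and beside BRG1-K785R from 3.26 and 3.95 to 1.68 and 1.91 CPM (-1.37 ± 0.25; GFP arm -2.57 ± 0.19). COL7A1, the anchoring fibril collagen, and COL27A1, a cartilage collagen, were not called beside BRG1 and rose beside BRG1-K785R by 1.55 ± 0.15 and 1.49 ± 0.13 (GFP arm difference -0.50 ± 0.20, and -0.37 ± 0.16 and not called).

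**Figure D4:**
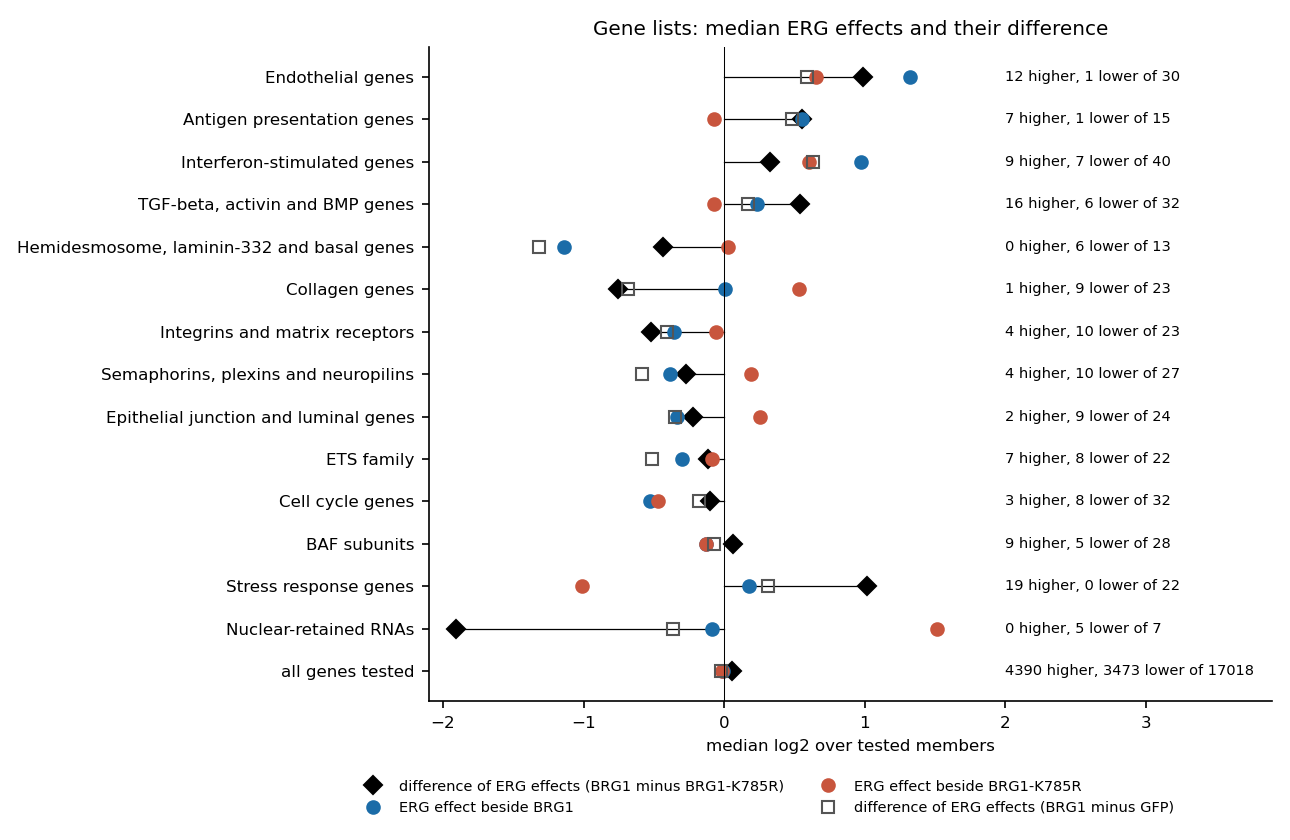
Median log2 over the tested members of 14 gene lists and over all genes, for the ERG effect in each arm and for the 2 differences, with the counts called higher and lower for BRG1 minus BRG1-K785R at the right. Stress response genes (19 higher, 0 lower of 22) and nuclear-retained RNAs (0 and 5 of 7) have their large median change in the BRG1-K785R arm.

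Cell cycle genes fell with ERG in both arms. Of 32, 30 fell and 0 rose beside BRG1 (all genes, 22.8% and 22.6%). Beside BRG1-K785R 25 fell and 3 rose (all genes, 30.9% and 25.3%). Their difference was called higher for 3 and lower for 8 (all genes, 25.8% and 20.4%), with a median of -0.10. With library totals it was higher for 2 and lower for 18 (all genes, 2265 and 5316 of 17018). With the GFP arm it was higher for 0 and lower for 11 (all genes, 19.1% and 18.7%). CCND1, encoding cyclin D1, fell beside BRG1 from 319 and 290 to 169 and 162 CPM and rose beside BRG1-K785R from 122 and 126 to 161 and 155 CPM (-1.23 ± 0.10, adjusted p = 6.21e-11; GFP arm -0.93 ± 0.10). E2F1, a transcription factor of S-phase entry, fell beside BRG1 from 102 and 107 to 59.8 and 58.8 CPM, and rose beside BRG1-K785R from 84.3 and 76.4 to 90.3 and 98.7 CPM (-1.05 ± 0.11; GFP arm -0.46 ± 0.11). CDKN2B, the CDK4 inhibitor p15, fell from 73.8 and 71.5 to 28.3 and 28.6 CPM beside BRG1 and by less, from 24 and 23.3 to 19.2 and 21.2 CPM, beside BRG1-K785R (-1.13 ± 0.12; GFP arm -0.88 ± 0.13).

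Stress response genes, which include chaperones, antioxidant enzymes and ATF4 targets, changed mainly in the BRG1-K785R arm. Of 22 stress response genes, 19 had a higher ERG effect beside BRG1 and 0 a lower one (all genes, 25.8% and 20.4%), with a median of 1.02. In the BRG1-K785R arm 20 fell and 0 rose with ERG (all genes, 30.9% and 25.3%), with a median of -1.01. Beside BRG1 9 rose and 4 fell (all genes, 22.6% and 22.8%), with a median of 0.17. With the GFP arm the difference was higher for 11 and lower for 3 (all genes, 19.1% and 18.7%), with a median of 0.32. HMOX1, the haem-degrading oxidative stress enzyme, was at 178 and 103 CPM in BRG1-K785R Empty and 37.6 and 37.3 CPM in BRG1-K785R ERG. It rose beside BRG1 from 18.6 and 16.3 to 50.4 and 51.0 CPM, a difference of 3.45 ± 0.19 (1.12 ± 0.20 with the GFP arm). HSPA1A, an inducible HSP70 chaperone, was at 1539 and 1345 CPM in BRG1-K785R Empty and between 314.8 and 562.0 CPM in the other 10 libraries (1.83 ± 0.11; 0.42 ± 0.11 with the GFP arm). Its copy HSPA1B shares reads with it. TRIB3 and SESN2, targets of the amino acid response factor ATF4, differed by 1.81 ± 0.16 and 1.76 ± 0.14. With the GFP arm TRIB3 was called the other way, at -0.76 ± 0.17, and SESN2 was not called, at -0.23 ± 0.15. For CRYAB, a small heat shock protein reported as restored by BRG1, the BRG1 libraries were far higher, at 421 to 765 CPM, than the BRG1-K785R libraries, at 1.83 to 10.3 CPM (3.09 ± 0.18; 1.59 ± 0.29 with the GFP arm). A list of heat shock genes, added after the values were seen, had 15 of 18 higher (14 with the GFP arm), and an added list of ATF4 targets had 16 of 20 (6 with the GFP arm). Over all genes 25.8% were higher, and 19.1% with the GFP arm. Both added lists share members with the stress response list, so their counts are not separate from it.

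Nuclear-retained RNAs moved the opposite way, again in the BRG1-K785R arm. Of 7, 5 had a lower difference and 0 a higher one (all genes, 20.4% and 25.8%), with a median of -1.91. With the GFP arm 2 were lower and 1 higher (all genes, 18.7% and 19.1%). MALAT1, a nuclear speckle RNA, was at 88.8 and 94.2 CPM in BRG1-K785R Empty and 994 and 1257 CPM in BRG1-K785R ERG. Elsewhere in SW13 MALAT1 lay between 808 and 2003 CPM. The difference was -3.51 ± 0.19, and -0.36 ± 0.18 and not called with the GFP arm. NEAT1, the scaffold of paraspeckles, was at 150 and 176 CPM in BRG1-K785R Empty and 533 to 1150 CPM elsewhere (-2.21 ± 0.16; -1.04 ± 0.15 with the GFP arm). Short noncoding RNAs were also among the 12 largest positive differences. RMRP, the RNA of RNase MRP, was at 14.4 and 13.3 CPM in BRG1-K785R Empty and at most 1.00 CPM in the other 10 libraries. RNA5-8S5, a ribosomal RNA, and RPPH1, the RNA of RNase P, were likewise highest there, at 431 and 640 CPM and 7.15 and 7.46 CPM. Against GFP, RMRP was not called (2.16 ± 0.97), while RNA5-8S5 (3.65 ± 0.86) and RPPH1 (1.74 ± 0.64) were.

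Of 28 BAF subunits, 9 were higher and 5 lower, near the shares over all genes (25.8% and 20.4%). With library totals 7 were higher and 7 lower (all genes, 2265 and 5316 of 17018). With the GFP arm 4 were higher and 5 lower (all genes, 19.1% and 18.7%). DPF2, an accessory PHD-finger subunit, was at 80.2 to 88.2 CPM over the BRG1 libraries and went from 197 and 183 to 95.7 and 86.8 CPM beside BRG1-K785R (1.14 ± 0.10; 0.14 ± 0.10 and not called with the GFP arm). SMARCD1, a core subunit, gave 0.78 ± 0.10, and -0.24 ± 0.10 and not called with the GFP arm. SMARCB1, another core subunit, gave 0.63 ± 0.11, and 0.22 ± 0.11 and not called with the GFP arm. TIMP1, the inhibitor of metalloproteinases, fell in both arms, from 76.9 and 82.6 to 43.6 and 38.1 CPM beside BRG1 and from 159 and 156 to 31.7 and 25.4 CPM beside BRG1-K785R (1.5 ± 0.13; 0.17 ± 0.12 and not called with the GFP arm). MMP2, gelatinase A, was at 26.9 to 30.9 CPM over the BRG1 libraries and fell from 5.21 and 5.24 to 1.49 and 1.43 CPM beside BRG1-K785R (1.96 ± 0.24). Its difference with the GFP arm was 0.19 ± 0.35 and not called.

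**Figure D5:**
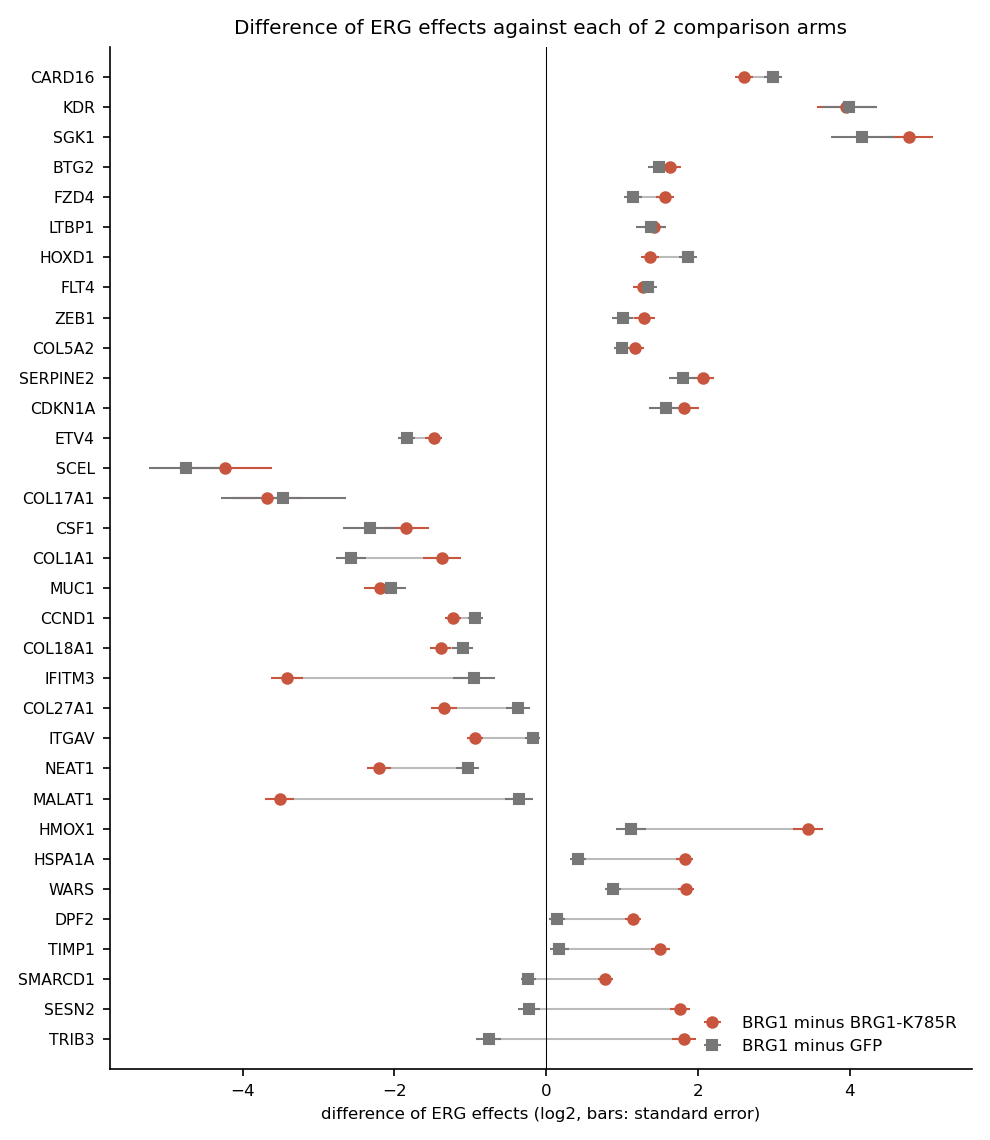
Difference of ERG effects on the log2 scale for 33 genes, as BRG1 minus BRG1-K785R (red) and BRG1 minus GFP (grey), with standard errors. The values for KDR (3.95 and 3.99) and ETV4 (-1.48 and -1.84) lie close together, while those for MALAT1 (-3.51 and -0.36) and TRIB3 (1.81 and -0.76) lie apart.

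Against the GFP arm, the ERG effect beside BRG1 differed for 6437 genes (37.8%), 3247 higher and 3190 lower, and the ERG effect beside BRG1-K785R for 6776 (39.8%), 2971 higher and 3805 lower. Both contrasts share the GFP libraries, and each shares an arm with the main contrast, so their gene lists are not counted against each other. KDR, FLT4, CARD16, CASP1, SGK1, BTG2, LTBP1, SMAD9, FZD4, DKK1, ZEB1 and COL5A2 were called higher with either comparison arm. COL17A1, SCEL, CSF1, MUC1, ETV4, IL17RD, CCND1 and CDKN2B were called lower with either. Other calls were not kept with the GFP arm. CD93, CD300LG, GABRP, KIAA1210, CCL5, LAMB3, UBD and KRT4 changed with ERG beside BRG1 or were higher there, with few reads in the GFP libraries. MALAT1, RMRP, DPF2, SMARCB1, SMARCD1, SESN2, TIMP1, MMP2, COL27A1 and ITGAV changed mainly beside BRG1-K785R. IFITM1, IFITM2, ELF2 and SMARCA4 were not called either, and TRIB3 was called the other way.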

How the data were processed

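RNA-seq (75-base single-end reads of polyA RNA) was made from SW13 cells in 6 groups of 2 libraries. Per the submitters' processing notes, reads were aligned with STAR 2.3.1 to hg19; neither labels nor headers name the counting tool or its strand setting, so reads of overlapping or antisense genes cannot be told apart. The deposited files give a count, a gene length and an RPKM for each of 26346 genes. The deposited RPKM equalled count over length and total within a relative gap of 5e-06, and only the deposited counts were tested. The gene length column of the deposited files is another quantity, used for that check alone.

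All 12 SW13 libraries entered 1 fit in edgeR 4.0.16 (R 4.3.3; TMM, low-count filter by group, quasi-likelihood F test with 6 residual degrees of freedom, Benjamini-Hochberg adjustment over 17018 genes, threshold 0.05). Fold changes are log2 differences, and the standard error is the log2 value divided by the square root of F. CPM are TMM-scaled. Promoter sequences were matched to genes by symbol. In simulated counts over 16486 genes, changes of 1.5-, 2- and 4-fold in the main difference were given to 67, 67 and 66 genes. They were recovered at 61.2%, 82.1% and 100%, with 14 false among 176 calls. The changes were made in BRG1 ERG alone, in far fewer genes than were called in the data. The simulation thus does not cover a contrast with so many changed genes or its dependence on the scale. Counting intervals are exact at 95% and cover counting error only, and the floor is 3 counts per library.

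The members and gene lists were chosen with earlier results of these data known, and 4 of the 38 lists after the values were seen. Named genes were drawn from the 12 largest differences in each direction at 5 CPM or more in a group. Up to 4 called members per list, by smallest adjusted p, were also eligible. In both cases 1 sign was required over the 16 choices of 1 library per group. With ERG and SMARCA4 these rules gave 150 genes. The text considers 92 genes by name, and the choice among the 150 followed no fixed rule. Genes of the inflammasome were added after their values were seen. VCaP and LNCaP libraries were not used here. Alternatives were RLE scaling, library totals, no filter, DESeq2 1.42.0, the 8 libraries alone, a replicate block, leaving out each library, and the GFP arm, the last chosen after seeing the data.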

Additional observations from a re-analysis of the deposited data

Results flagged for a closer look

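The test of the difference between ERG effects called 7863 genes between the BRG1 and BRG1-K785R arms, 6437 between the BRG1 and GFP arms and 6776 between the BRG1-K785R and GFP arms. SMARCA4 itself differed between the BRG1 and BRG1-K785R arms, by 0.76 on the log2 scale: it was lower with ERG beside BRG1-K785R, so SMARCA4 transcript was not at one level across the 4 groups.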

How the results depend on the processing

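The number of genes with a called difference was 7863 and lay between 6947 (DESeq2) and 7935 (no filter on low counts) under the alternatives that kept the contrast and all of its libraries. The genes called were not all the same. With library totals 7581 were called, of which 5737 were among the 7863, against 7631 of 7754 with RLE scaling. Leaving out 1 library gave 6506 to 7745 calls for the difference, 5703 to 8042 for the ERG effect beside BRG1 and 8049 to 9696 for that beside BRG1-K785R. Replicate numbers did not pair the samples: correlations of same-numbered libraries' deviations were -0.098 to 0.12, and with a replicate block 7826 genes were called. Of the 92 genes considered by name, all kept call and direction with RLE scaling, library totals, no filter, the 8 libraries alone and the replicate block, and 91 with DESeq2 (NHS was not called). In the fits without 1 library 81 kept both, and the exceptions were ERG, CD93, GABRP, APOL3, KIAA1210, COLCA1, UBD, NHS, KCNMA1, KRT4 and LIF. Apart from ERG and SMARCA4, the 92 genes were taken from those called in the full fit with 1 sign over the library choices. Keeping call and direction was thus partly fixed by that choice, and the counts do not measure how stable other genes are. The difference for KRT4 lay between -4.35 and 0.49, the latter without BRG1-K785R ERG replicate 2. With the GFP arm in place of the BRG1-K785R arm, an alternative chosen after seeing the data, 68 kept call and direction, 19 lost the call and 5 reversed in sign: TRIB3 (-0.76), which was called, and SMARCA4 (-0.21), IFITM2 (0.11), SESN2 (-0.23) and SMARCD1 (-0.24), which were not. The cause was not tested. Depth limits genes with few reads in the BRG1-K785R arm, where a change could not be measured.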
